A study of Mus musculus with 18 samples.

Results

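The 10 genes described here, Atf4, Atf5, Ddit3, Cebpb, Trib3, Ppp1r15a, Chac1, Sesn2, Asns and Psat1, are the transcription factor at the center of the integrated stress response and genes that it is known to act with or to activate. They were taken as a list of names out of 29875 genes in the table, with earlier results of these data known, and all 10 are among the 13844 genes that passed the filter on low counts. Their RNA was read in mouse bone marrow–derived dendritic cells (DCs) in collagen gels of 4 densities and in suspension. Atf4 was higher in collagen than in suspension, and Sesn2 and Asns were lower, in the fit without a replicate term. The other 7 genes did not pass that test, in which 20.2% of all genes passed. The calls of Sesn2 and Asns were lost in 10 and 9 of 21 omissions of a library or a replicate. For Asns these include the 1 suspension library that stood far above the others. With the replicate number as a block, where 34.8% of all genes passed, Ddit3 and Ppp1r15a were higher as well and Chac1 was lower. At the highest density, where 14.8% of all genes passed without the block, Ppp1r15a was also higher than in suspension and Chac1 lower.

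In the integrated stress response, kinases that sense amino acid shortage, misfolded protein in the endoplasmic reticulum, viral RNA or heme shortage phosphorylate the translation initiation factor eIF2. General protein synthesis then falls, while the messenger RNA of Atf4 is translated more, and ATF4 activates genes for amino acid supply, redox balance and, under prolonged stress, cell death. In DCs, as in other secretory and phagocytic cells, parts of this response are tied to the unfolded protein response and to sensing of nutrients and microbes. Because ATF4 is largely controlled at translation, the RNA level of Atf4 is not the level of its protein, which was not analysed here.

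DCs were grown from bone marrow of wild-type C57Bl6/J mice aged 8 to 12 weeks with 10% GM-CSF supernatant and were matured on day 8 with LPS at 200 ng/ml for 24 hours, so that every group, controls included, was LPS-stimulated. The cells were then embedded in bovine collagen at 1.7, 2.6, 3.5 or 4.4 mg/ml under a gradient of CCL19, a chemokine that draws mature DCs, or were loaded into such chambers with no gel (suspension), and RNA was taken 5 hours after the gradient was set up. Each of the 6 groups held 3 libraries, 18 in all. The 2 suspension groups are named here by their sample titles, plus CCL19 and without CCL19, but the library names state the opposite in each replicate, so effects of CCL19 are given no direction. Libraries of one replicate number carry one date and one lane in their names and hold each group once, so the replicate is also a batch. The labels do not say whether the replicates came from separate mice or pools of mice, and the p-values cover the spread between these libraries only.

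Total counts ran from 13062944 to 28059839 per library, so that 3 counts corresponded to between 0.107 and 0.230 CPM, a floor that covers counting error only. CPM are counts scaled to the library size after TMM normalization. The 11 dendritic cell markers were detected in all 18 libraries, with a summed level between 28951 and 103228 CPM. Between collagen and suspension 1 of them was higher and 1 lower, and with the replicate number as a block 2 and 1. Markers of other cell types also differed in places. All 8 tested eosinophil markers of 9 were lower in collagen, where their sum was between 14.7 and 168.7 CPM (median 43.8), than in suspension, where it was between 120.0 and 1364 CPM (median 357). Of the other lists, 2 of 10 neutrophil markers were lower in collagen (1185 to 5403 against 781 to 10061 CPM), 1 of 7 basophil and mast cell markers was higher and 1 lower (83.2 to 377 against 148 to 301 CPM), and 0 of 9 macrophage markers passed (1020 to 4059 against 1011 to 3767 CPM), although 6 of them were higher in collagen with the replicate number as a block. Mitochondrially encoded genes took 0.832 to 2.90% of the counts in collagen and 0.583 to 1.68% in suspension. In such bulk RNA, fewer cells of a type and less RNA per cell cannot be told apart, and the part of these shifts in the results was not tested.

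Sequences around the start sites are shown for the members that carry the core of the element bound by ATF4 with C/EBP proteins, because ATF4 reaches its target genes through that element. The letters TGATGNAA were searched on both strands of the 300 bases from 250 before to 50 after each start site (RefSeq, GRCm38.p6), in which 10 of the 10 members had 12 windows. The core was present at 3 members, Asns, Chac1 and Trib3, compared with 3.97% of all 32851 windows and 4.51% of genes. Capitals mark the match in the following 30-base stretches, printed 5′ to 3′ on the strand of the gene.
Asns, chr6:7693214-7693243, minus strand: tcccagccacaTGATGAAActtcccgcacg
Chac1, chr2:119351038-119351067, plus strand: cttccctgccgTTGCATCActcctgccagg
Trib3, chr2:152344028-152344057, minus strand: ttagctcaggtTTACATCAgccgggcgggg
From the RefSeq start, the match lay at −23 to −16 for Asns on the strand of the gene and at −193 to −186 for Chac1 on the opposite strand. For Trib3 it lay at 15 to 22 after the RefSeq start, again on the opposite strand. By the gene positions printed below, which come from GENCODE, the Asns match lies inside the gene and the Trib3 match before its start. The longer endoplasmic reticulum stress response element (ERSE), through which ATF6 acts, was searched in its full consensus and was in 0 members and in 0.119% of all windows. A match of letters is no proof of a bound site, and the 3 genes with the core did not share one pattern of RNA level, as their values below show.

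Levels between genes can be compared only per length of exon. In suspension the means per kilobase (n = 6) were 99.1 ± 58.8 (SD) CPM for Atf4 and 85.6 ± 16.2 (SD) for Atf5, followed by 54.7 ± 6.17 for Sesn2 and 42.2 ± 21.3 for Ppp1r15a. Cebpb (28.1 ± 29.9), Ddit3 (21.3 ± 13.4), Asns (18.5 ± 10.5) and Trib3 (12.9 ± 13.1) lay lower, with standard deviations wider than the steps between them. The mean of Psat1 (7.63 ± 4.23) was lower still, but within the spread of Trib3. Trib3 had 32.5 and 26.7 CPM per kilobase in replicate 1 of the 2 suspension groups, and 3.33 to 7.14 in replicates 2 and 3. Chac1 (1.33 ± 0.593) was the lowest member.

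**Figure D1:**
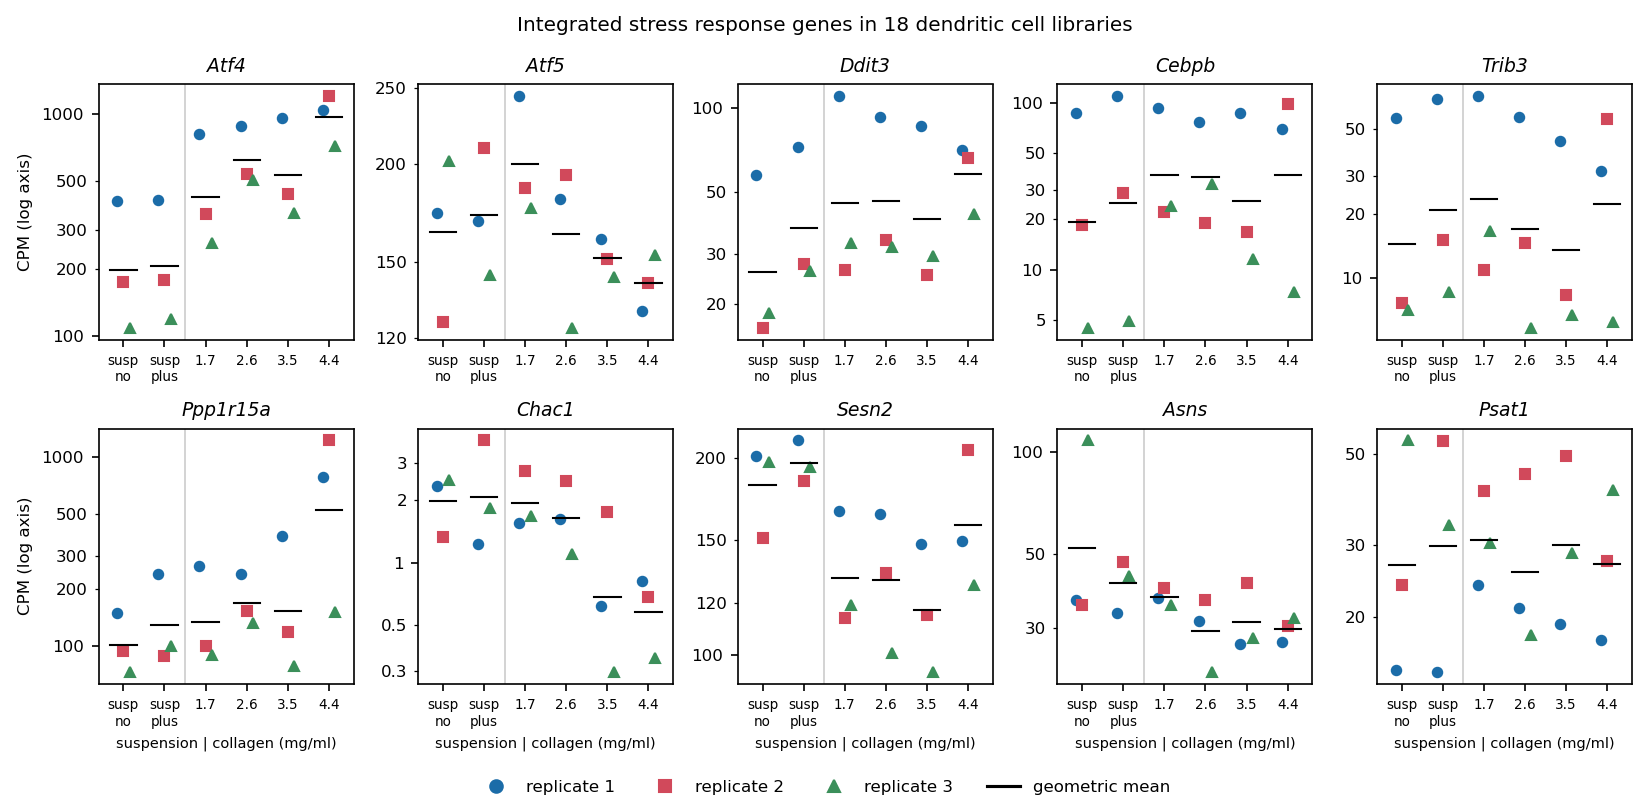
Each panel plots 1 gene, with CPM on a log axis against the 2 suspension groups (titled without and plus CCL19) and the 4 collagen densities in mg/ml. Symbols are single libraries by replicate, and the bar is the geometric mean of 3 libraries. Atf4 lies above both suspension libraries of its replicate in 12 of 12 collagen libraries, Sesn2 lies below in 11 of 12, and Ddit3, Cebpb and Trib3 differ more between replicates than between groups.

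The first comparison asked whether RNA of the response differed between DCs in collagen and DCs in suspension, with the mean of the 4 collagen groups set against the mean of both suspension groups. At a false discovery rate (FDR) of 0.1 in edgeR's quasi-likelihood test, 3 of the 10 members passed, 1 higher and 2 lower in collagen, beside 20.2% of all genes tested (7.78% higher and 12.4% lower). After offsets for GC and length, the split of all genes was more even, 1388 higher and 1472 lower, and with DESeq2 it was 1608 higher and 1806 lower, compared with 1077 and 1713. With the replicate number as a block, 6 of 10 passed, 3 higher and 3 lower, beside 34.8% of all genes (15.6% higher and 19.3% lower). The median log2 difference was −0.04 over the members and 0.00 over all genes. The 10 genes thus did not move one way. The median of the summed eosinophil markers was 357 CPM in suspension and 43.8 CPM in collagen, and that of the mitochondrial share 0.844% and 1.69%, and their part in the differences of the members was not tested.

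Among the transcription factors, Atf4 (ENSMUSG00000042406, plus strand of chromosome 15 of GRCm38 from 80255184 to 80257541) encodes the main effector of the response and rose in collagen. In suspension it had 410, 180 and 120 CPM in replicates 1, 2 and 3 of the group titled plus CCL19 and 408, 176 and 109 CPM in the group titled without CCL19. In collagen, replicates 1, 2 and 3 had 810, 355 and 262 CPM at 1.7 mg/ml, 885, 535 and 504 CPM at 2.6 mg/ml, 960, 435 and 357 CPM at 3.5 mg/ml, and 1042, 1205 and 716 CPM at 4.4 mg/ml. Replicate 1 was highest in 5 of the 6 groups, and the exception was 4.4 mg/ml. All 12 collagen libraries were above both suspension libraries of the same replicate, a pattern that 2.43% of all genes showed. Of these, 9 of the 12 were above every suspension library. For such counts of fewer than 12 libraries, here and for the genes below, no share of all genes was taken, so they are descriptions. The log2 difference between collagen and suspension was 1.47 (standard error, SE, 0.37; adjusted p = 0.0151, edgeR), a 2.77-fold rise, and 1.59 (SE 0.18, adjusted p = 1.97e-05) with the replicate block. Within replicates 1, 2 and 3 the differences of mean log2 CPM were 1.17, 1.66 and 1.91. The call without the block was lost when replicate 2 was left out of all groups (1.41, adjusted p = 0.217).

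Ddit3 (ENSMUSG00000025408, plus strand of chromosome 10 from 127290774 to 127296288) encodes CHOP, a transcription factor of the late, death-prone phase of the response. It had 72.4, 27.6 and 26.1 CPM in replicates 1, 2 and 3 of suspension titled plus CCL19 and 57.3, 16.4 and 18.6 CPM in suspension titled without CCL19. At 1.7 mg/ml the values were 110, 26.5 and 32.9 CPM, at 2.6 mg/ml 92.6, 33.8 and 31.8 CPM, at 3.5 mg/ml 85.8, 25.3 and 29.5 CPM, and at 4.4 mg/ml 70.4, 65.9 and 41.9 CPM. The collagen and suspension ranges overlapped, and replicate 1 (57.3 to 110 CPM) lay above most of replicate 2 (16.4 to 65.9 CPM) and all of replicate 3 (18.6 to 41.9 CPM). Against the suspension libraries of the same replicate, 9 of 12 collagen libraries were above both. The log2 difference of 0.58 (SE 0.41) did not pass (adjusted p = 0.396, edgeR), and with the replicate block it was 0.62 (SE 0.18) and passed (adjusted p = 0.0145). Within replicates it was 0.46, 0.71 and 0.61. In the annotation Ddit3 overlaps Mars and Gm4189 on the opposite strand and another record of the same symbol, and the strand setting of the counting is not given in the sources used here, so its counts are uncertain.

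Atf5 and Cebpb did not pass in any of the 9 comparisons, with or without the block. Atf5 (ENSMUSG00000038539, minus strand of chromosome 7 from 44812256 to 44816658), a relative of ATF4 that is known for mitochondrial stress, had 244, 186 and 176 CPM in replicates 1, 2 and 3 at 1.7 mg/ml and 180, 193 and 123 CPM at 2.6 mg/ml. At 3.5 mg/ml it had 160, 151 and 144 CPM, and at 4.4 mg/ml 130, 141 and 153 CPM. In suspension it had 169, 209 and 144 CPM in the group titled plus CCL19 and 173, 126 and 201 CPM in the group titled without CCL19. Its collagen and suspension levels overlapped almost wholly (log2 difference −0.06, with 2 standard errors to each side from −0.37 to 0.26). Its slope over the collagen densities was negative in 3 of 3 replicates, at −0.19 log2 units per mg/ml (SE 0.09, adjusted p = 0.703, edgeR), and missed the threshold. Atf5 overlaps Nup62 and Il4i1 on the opposite strand.

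Cebpb (ENSMUSG00000056501, plus strand of chromosome 2 from 167688915 to 167690418) encodes C/EBPβ, a partner of ATF4 and a factor of inflammatory genes in myeloid cells. It varied by replicate, between 69.4 and 110 CPM in the libraries of replicate 1, between 16.9 and 98.5 CPM in replicate 2, and between 4.46 and 32.5 CPM in replicate 3. Suspension had 110, 28.8 and 4.94 CPM in the group titled plus CCL19 and 86.7, 18.5 and 4.46 CPM in the other. Collagen had 92.7, 22.1 and 24.2 CPM at 1.7 mg/ml, 76.8, 18.9 and 32.5 CPM at 2.6 mg/ml, 87.6, 16.9 and 11.6 CPM at 3.5 mg/ml, and 69.4, 98.5 and 7.29 CPM at 4.4 mg/ml. The within-replicate differences of collagen from suspension were −0.27, 0.32 and 1.75 on the log2 scale, so the replicates did not share a direction. With 2 standard errors to each side, the log2 difference of 0.13 (SE 0.70) was between −1.26 and 1.53. With the block it was 0.68 (SE 0.41), with a lower bound of −0.14 by the same measure, so that this range holds a large rise but no large fall. Cebpb overlaps Tmem189 on the opposite strand.

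The second group of members holds feedback regulators and stress effectors. Trib3 (ENSMUSG00000032715, minus strand of chromosome 2 from 152337422 to 152344032) encodes a pseudokinase that is induced by ATF4 and CHOP and restrains them. It had 69.1, 15.2 and 8.59 CPM in replicates 1, 2 and 3 of suspension titled plus CCL19 and 56.6, 7.65 and 7.07 CPM in suspension titled without CCL19. It had 71.5, 10.9 and 16.6 CPM at 1.7 mg/ml, 57.3, 14.6 and 5.83 CPM at 2.6 mg/ml, 44.0, 8.36 and 6.70 CPM at 3.5 mg/ml, and 31.9, 56.1 and 6.24 CPM at 4.4 mg/ml. Replicate 1 was high in every group (31.9 to 71.5 CPM), and the only high value outside it was replicate 2 at 4.4 mg/ml. The log2 difference of collagen from suspension was −0.01 (SE 0.67, adjusted p = 0.994, edgeR) and 0.22 (adjusted p = 0.657) with the block, and its within-replicate values were −0.35, 0.61 and 0.03. Trib3, which carries the core letters shown above, passed in none of the 9 comparisons.

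Ppp1r15a (ENSMUSG00000040435, minus strand of chromosome 7 from 45522916 to 45526268) encodes GADD34, which brings a phosphatase to eIF2 and so ends the response. In suspension it had 240, 88.2 and 99.5 CPM in replicates 1, 2 and 3 of the group titled plus CCL19 and 150, 93.8 and 72.4 CPM in the group titled without CCL19. It had 266, 99.3 and 89.3 CPM at 1.7 mg/ml, 241, 152 and 133 CPM at 2.6 mg/ml, and 381, 119 and 78.3 CPM at 3.5 mg/ml. At 4.4 mg/ml it had 785, 1232 and 150 CPM. Thus replicates 1 and 2 at 4.4 mg/ml were above every other library, while replicate 3 was within the suspension range. Over all collagen libraries, 10 of 12 were above both suspension libraries of their replicate, and the log2 difference of 1.01 (SE 0.44) missed the threshold (adjusted p = 0.14, edgeR). With the block it was 0.94 (SE 0.28) and passed (adjusted p = 0.0186). Without the block it also passed with DESeq2 (adjusted p = 0.0588), with GC and length offsets (0.0677, edgeR) and with no filter on low counts (0.00395, edgeR). Within replicates it was 0.97, 1.25 and 0.36. Ppp1r15a overlaps Tulp2 on the opposite strand.

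Chac1 (ENSMUSG00000027313, plus strand of chromosome 2 from 119351229 to 119354381), which encodes an enzyme that degrades glutathione and is among the most induced targets of ATF4 and CHOP in many cells, was barely expressed, with 4 to 60 counts per library. It had 1.23, 3.86 and 1.83 CPM in replicates 1, 2 and 3 of suspension titled plus CCL19 and 2.32, 1.32 and 2.49 CPM in suspension titled without CCL19. It had 1.54, 2.75 and 1.68 CPM at 1.7 mg/ml and 1.62, 2.46 and 1.10 CPM at 2.6 mg/ml. At 3.5 mg/ml it had 0.617, 1.76 and 0.298 CPM, and at 4.4 mg/ml 0.812, 0.683 and 0.350 CPM. The 3 libraries at 4.4 mg/ml were below all 6 suspension libraries, as in 9.25% of all genes. Against the suspension libraries of the same replicate, 7 of the 12 collagen libraries were below both and 0 were above both. Over all densities the log2 difference was −0.88 (SE 0.37, adjusted p = 0.131, edgeR), which missed the threshold, and with the block it was −0.96 (SE 0.32, adjusted p = 0.0362). In direction, Chac1 was opposite to Atf4, with within-replicate differences of −0.62, −0.39 and −1.49.

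Sesn2 (ENSMUSG00000028893, minus strand of chromosome 4 from 132492032 to 132510501) encodes Sestrin2, a leucine-binding protein that restrains the growth kinase mTORC1 and is a known target of ATF4. In suspension it had 213, 185 and 194 CPM in replicates 1, 2 and 3 of the group titled plus CCL19 and 201, 151 and 198 CPM in the group titled without CCL19. In collagen it had 166, 114 and 119 CPM at 1.7 mg/ml, 164, 133 and 101 CPM at 2.6 mg/ml, 148, 115 and 94.0 CPM at 3.5 mg/ml, and 149, 206 and 128 CPM at 4.4 mg/ml. It was below both suspension libraries of the same replicate in 11 of 12 collagen libraries, the exception being replicate 2 at 4.4 mg/ml. In 9 of 12 it was below all 6 suspension libraries. How many of all genes showed such counts was not taken. The log2 difference was −0.49 (SE 0.17, adjusted p = 0.062, edgeR), a level 1.40-fold lower, and −0.50 (SE 0.14, adjusted p = 0.0137) with the block. Within replicates it was −0.40, −0.28 and −0.84. The call without the block was lost with GC and length offsets (−0.29, adjusted p = 0.108), with the size factors of DESeq2 (0.105) and with no filter on low counts (0.204). It was also lost without replicate 2 at 1.7 mg/ml (adjusted p = 0.101), replicate 3 at 2.6 mg/ml (0.114), any of the 3 libraries of suspension titled plus CCL19 (0.157, 0.103 and 0.107), or replicate 1 or 3 of suspension titled without CCL19 (0.156 and 0.125). With replicate 1, 2 or 3 left out of all groups it was lost each time (0.188, 0.245 and 0.347), so that 10 of 21 omissions lost it. In the annotation Sesn2 overlaps Gm12981.

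The remaining members serve amino acid synthesis. Asns (ENSMUSG00000029752, minus strand of chromosome 6 from 7675169 to 7693254), asparagine synthetase, had 33.3, 47.3 and 43.0 CPM in replicates 1, 2 and 3 of suspension titled plus CCL19 and 36.4, 35.2 and 108 CPM in suspension titled without CCL19. It had 36.8, 39.6 and 35.2 CPM at 1.7 mg/ml, 31.5, 36.3 and 22.2 CPM at 2.6 mg/ml, 26.9, 40.9 and 28.1 CPM at 3.5 mg/ml, and 27.3, 30.5 and 32.3 CPM at 4.4 mg/ml. A single suspension library, replicate 3 of the group titled without CCL19, stood far above the other 17, and the remaining values overlapped. The log2 difference between collagen and suspension was −0.63 (SE 0.22, adjusted p = 0.0689, edgeR), a level 1.55-fold lower, and −0.60 (adjusted p = 0.0401) with the block. Without that library the difference was −0.26 and did not pass (adjusted p = 0.366). The call was also lost without replicate 3 at 2.6 mg/ml (adjusted p = 0.11), replicate 1 at 3.5 mg/ml (0.104), replicate 1 at 4.4 mg/ml (0.105), or replicate 2 or 3 of suspension titled plus CCL19 (0.161 and 0.127). With replicate 1, 2 or 3 left out of all groups it was lost each time (0.129, 0.185 and 0.613), so that 9 of 21 omissions lost it, and without replicate 3 the difference was −0.18. Within replicates 1, 2 and 3 the differences were −0.20, −0.16 and −1.23.

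Psat1 (ENSMUSG00000024640, minus strand of chromosome 19 from 15904678 to 15947337), an enzyme of serine synthesis, did not pass in any comparison. It had 14.7, 53.9 and 33.5 CPM in replicates 1, 2 and 3 of suspension titled plus CCL19 and 14.9, 23.9 and 54.0 CPM in suspension titled without CCL19. It had 23.9, 40.6 and 30.3 CPM at 1.7 mg/ml, 21.0, 44.7 and 18.1 CPM at 2.6 mg/ml, 19.2, 49.4 and 28.7 CPM at 3.5 mg/ml, and 17.6, 27.4 and 40.9 CPM at 4.4 mg/ml. In contrast to Ddit3, Cebpb and Trib3, its replicate 1 was the lowest in 5 of the 6 groups. The log2 difference of collagen from suspension was −0.11 (SE 0.33), with 2 standard errors to each side from −0.77 to 0.55. The processed pseudogene Gm3329 overlaps Psat1, and the treatment of reads that match more than 1 place is not given in the sources used here.

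**Figure D2:**
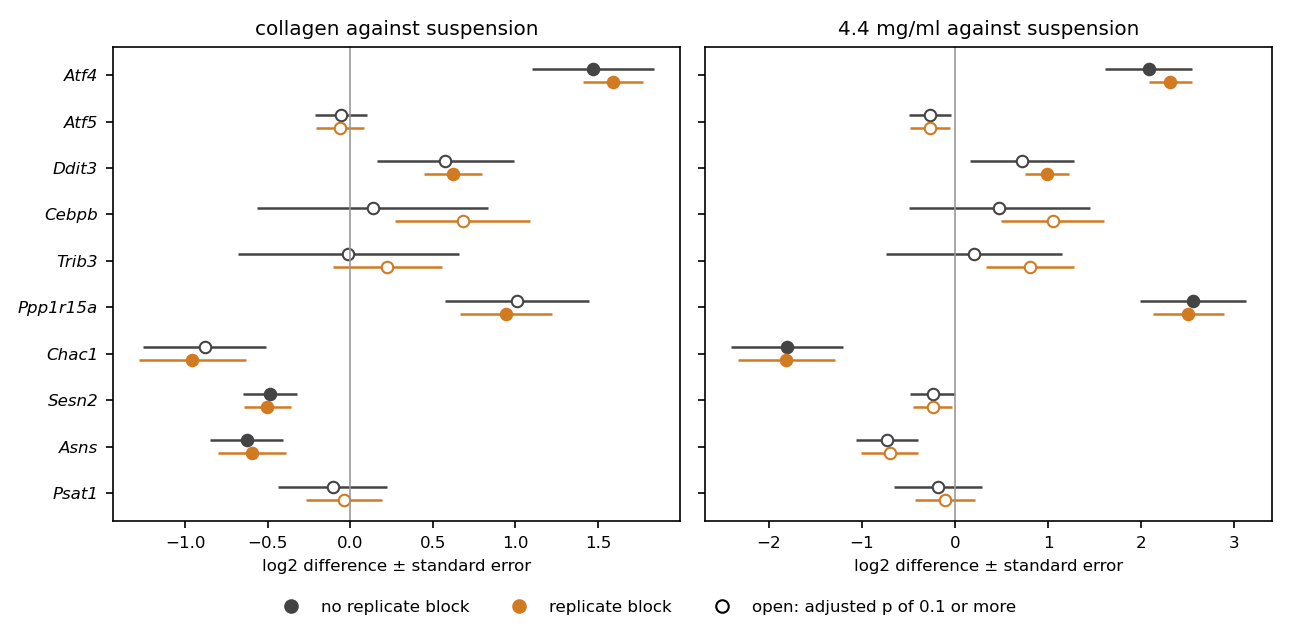
Log2 differences with their standard errors are plotted for the 10 genes, for all collagen libraries against suspension (left) and for 4.4 mg/ml against suspension (right), in the fit without and with the replicate block. Filled points passed an FDR of 0.1. Atf4 passed in both panels and both fits, while Ddit3 passed only with the block.

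Each density was next set against the same 6 suspension libraries, so the following 4 comparisons share their controls. At 1.7 mg/ml, 0 of 10 members passed in edgeR (2 at an unadjusted p under 0.05) beside 0.0361% of all genes and 0 in DESeq2 beside 1.13%, and with the block Atf4 passed beside 2.91%. At 2.6 mg/ml, Atf4 passed beside 7.87% of genes, and with the block Atf4 and Sesn2 passed beside 21.6%. At 3.5 mg/ml, 0 members passed in edgeR (3 at an unadjusted p under 0.05) beside 4.90% and 1, Atf4, in DESeq2 beside 10.5%, and with the block Atf4, Chac1 and Sesn2 passed beside 18.4%. At 4.4 mg/ml, Atf4, Ppp1r15a and Chac1 passed beside 14.8%, and with the block Ddit3 passed as well beside 31.9%.

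The log2 difference of Atf4 from suspension was 1.02 at 1.7 mg/ml (adjusted p = 0.614, edgeR), 1.46 at 2.6 mg/ml (adjusted p = 0.0915), 1.32 at 3.5 mg/ml (adjusted p = 0.154) and 2.08 at 4.4 mg/ml (adjusted p = 0.0111). With the block these differences were 1.05, 1.62, 1.38 and 2.31, and all 4 passed (adjusted p = 0.0379, 0.000612, 0.00221 and 1.44e-05 in edgeR). Atf4 was therefore higher at each density in the fit that takes out the replicate, and its mean did not rise at each step. At 4.4 mg/ml it had 988 ± 249 CPM (SD, n = 3) against 234 ± 139 CPM (SD, n = 6) in suspension, a 4.23-fold rise by the fit, and its 3 libraries were above all 6 suspension libraries, a pattern of 4.93% of all genes. Without replicate 2 in all groups the difference at 4.4 mg/ml was 1.77 (adjusted p = 0.295, edgeR). The call at 2.6 mg/ml, where Atf4 had 641 ± 212 CPM (SD, n = 3), was lost in 13 of 21 omissions of a library or a replicate, with log2 differences from 1.14 to 1.84 and an adjusted p of up to 0.468.

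Ppp1r15a at 4.4 mg/ml had 722 ± 543 CPM (SD, n = 3) against 124 ± 62.5 CPM (SD, n = 6) in suspension. The log2 difference was 2.56 (SE 0.57, adjusted p = 0.0106, edgeR), a 5.89-fold rise, and 2.51 (adjusted p = 0.000219) with the block. Within replicates 1, 2 and 3 it was 2.05, 3.76 and 0.82, so that the same sign held in 3 of 3 replicates with sizes far apart. Replicate 2 at 4.4 mg/ml held the highest Ppp1r15a of all 18 libraries, 1.57 times the next library of its group, and also the highest Atf4. Without it the difference was 1.93 (adjusted p = 0.076), and with the block as well 1.47 (adjusted p = 0.00149). Without replicate 2 in all groups it was 1.80 (adjusted p = 0.345). At the 3 lower densities Ppp1r15a did not pass in either fit, with log2 differences of 0.31, 0.52 and 0.65.

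Chac1 at 4.4 mg/ml had 0.615 ± 0.239 CPM (SD, n = 3) against 2.17 ± 0.971 CPM (SD, n = 6) in suspension. The log2 difference was −1.81 (SE 0.60, adjusted p = 0.07, edgeR), a level 3.50-fold lower, and −1.81 (adjusted p = 0.0181) with the block. Within replicates it was −0.97, −1.59 and −2.29. This call rests on few counts. It was lost without replicate 1, 2 or 3 at 4.4 mg/ml (adjusted p = 0.143, 0.142 and 0.213), without replicate 2 of suspension titled plus CCL19 (0.14), without replicate 1 or 3 of suspension titled without CCL19 (0.102 and 0.105), and with no filter on low counts (0.107). With replicate 1, 2 or 3 left out of all groups it was lost each time (0.144, 0.296 and 0.271), so that 9 of 21 omissions lost it.

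Ddit3 at 4.4 mg/ml had a log2 difference of 0.72 (SE 0.56, adjusted p = 0.448, edgeR) and, with the block, of 0.99 (SE 0.24, adjusted p = 0.00656). The difference was positive in 3 of 3 replicates, at 0.13, 1.63 and 0.92. Sesn2 with the block was lower at 2.6 mg/ml (−0.54, adjusted p = 0.0891) and 3.5 mg/ml (−0.70, adjusted p = 0.0396) and did not pass at 4.4 mg/ml (−0.24, adjusted p = 0.419). Chac1 with the block was also lower at 3.5 mg/ml (−1.45, adjusted p = 0.077).

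The comparison within collagen asked whether these genes changed with density. The linear trend over the 4 densities passed in 0 of 10 members in edgeR (2 at an unadjusted p under 0.05) beside 0.00722% of all genes, which is 1 gene, and in 0 in DESeq2 beside 0.918%. The contrast of 4.4 with 1.7 mg/ml passed in 0 members in edgeR (2 at an unadjusted p under 0.05), also beside 0.00722%, and in 1, Ppp1r15a, in DESeq2 beside 1.2%. With the block, Atf4 and Ppp1r15a passed both, beside 1.45% and 1.73% of genes. The slope of Ppp1r15a was 0.77 log2 units per mg/ml (SE 0.25, adjusted p = 0.443, edgeR) and 0.75 (adjusted p = 0.0567) with the block, and it was positive in 3 of 3 replicates at 0.59, 1.17 and 0.17. For Atf4 the slope was 0.34 (SE 0.20, adjusted p = 0.82, edgeR) and 0.39 (adjusted p = 0.0807) with the block, with 0.13, 0.55 and 0.43 in the replicates. Both blocked calls were lost without replicate 2 at 4.4 mg/ml. The blocked slope was then 0.40 (adjusted p = 0.138, edgeR) for Ppp1r15a and 0.29 (adjusted p = 0.206) for Atf4. No other single library was left out with the block, so whether the loss is particular to that library was not tested.

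Between 4.4 and 1.7 mg/ml the blocked log2 difference was 2.28 for Ppp1r15a (SE 0.47, adjusted p = 0.0342, edgeR) and 1.26 for Atf4 (SE 0.28, adjusted p = 0.0474). Both differences include replicate 2 at 4.4 mg/ml, which held the highest level of both genes among the 18 libraries. That library had a mitochondrial share of 0.832%, the lowest in collagen, beside 2.18% and 2.90% in replicates 1 and 3 of its group. Its summed eosinophil markers, 168.7 CPM, were the highest in collagen, and the part of either value was not tested. The slope of Chac1 was negative in 3 of 3 replicates (−0.42, −0.67 and −0.83 per mg/ml), but its fitted slope of −0.67 (SE 0.23) missed the threshold without the block (adjusted p = 0.5) and with it (adjusted p = 0.139). It passed with DESeq2 and the block (adjusted p = 0.0407) and with GC and length offsets and the block (adjusted p = 0.0677, edgeR). For Sesn2 and Asns the slopes were 0.07 and −0.09, and their intervals of 2 standard errors, −0.12 to 0.27 and −0.35 to 0.17, held 0. In Cebpb and Trib3 the slope was positive in replicate 2 (0.70 and 0.69 per mg/ml) and negative in replicates 1 and 3 (−0.12 and −0.74 for Cebpb, −0.43 and −0.44 for Trib3).

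The 2 suspension groups were also set against each other. In this contrast 0 members passed in edgeR, with or without the block, and 0 in DESeq2 (0 at an unadjusted p under 0.05), beside 0% of all genes. Other settings did call genes in this contrast. DESeq2 with the block called 194 of all genes, 52 higher and 142 lower in the group titled plus CCL19. No filter on low counts in edgeR called 10. The log2 difference of Asns was −0.54 in the group titled plus CCL19 relative to the other (SE 0.37, adjusted p = 0.764, edgeR), to which the library that stood apart contributes. That of Ddit3 was 0.45 (SE 0.66, adjusted p = 0.879) and, with the block, 0.52 (SE 0.28, adjusted p = 0.397). For Atf4 the difference was 0.03, with 2 standard errors to each side from −1.09 to 1.16, and with the block it was 0.05, from −0.50 to 0.60. When all 6 groups were tested for a difference of any kind, Ppp1r15a passed (adjusted p = 0.0978, edgeR) beside 4.90% of genes, and with the block Atf4 (0.000293), Ppp1r15a (0.00253), Ddit3 (0.062) and Chac1 (0.0909) passed beside 24.3%.

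How the members varied among themselves was described by Pearson's r of log2 CPM over the 18 libraries after the mean of each replicate was subtracted. These libraries share batches, depth and the group differences given above, so r is a description. Of 45 pairs 25 were positive, from −0.69 to 0.81 with a median of 0.12. The sets named next were picked after the values were seen. Atf4, Ddit3 and Ppp1r15a varied together (0.81 for Atf4 with Ddit3, 0.72 for Atf4 with Ppp1r15a and 0.71 for Ddit3 with Ppp1r15a). A separate set was formed by Asns, Psat1, Atf5 and Chac1, with 0.73 for Atf5 with Psat1, 0.68 for Asns with Psat1 and 0.63 for Asns with Chac1. Between the sets 11 of 12 pairs were negative, down to −0.69 for Atf4 with Chac1 and −0.66 for Atf4 with Asns. Trib3 followed Ddit3 (0.67) and was only loosely related to Atf4 (0.23).

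**Figure D3:**
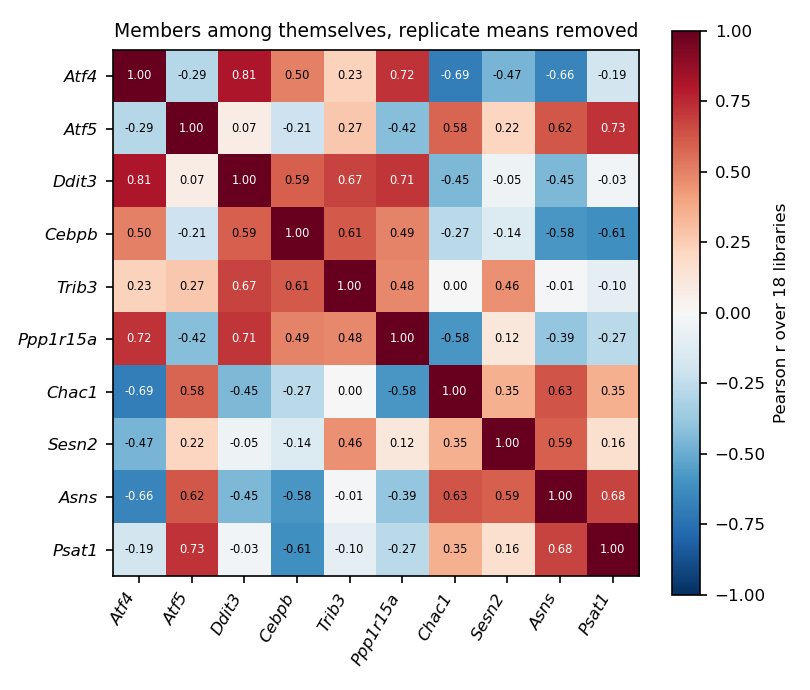
Each square is Pearson's r between 2 of the 10 genes over 18 libraries after replicate means were subtracted, from −1 (blue) to 1 (red). Atf4, Ddit3 and Ppp1r15a form a positive group, and Atf4 is negatively related to Chac1 and Asns.

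Other genes of the pathway were counted in 6 lists, with 66 genes tested in all. Between collagen and suspension 8 of these were higher and 6 lower, 21.2% of the 66, beside 20.2% of all genes, and with the block 18 were higher and 12 lower, 45.5%, beside 34.8%. The share without the block was thus near that of all genes. By direction, 7.78% of all genes were higher and 12.4% lower, and with the block 15.6% and 19.3%. Of the 11 eIF2 kinases and other genes of the eIF2 machinery, 0 were higher and 1 lower (median log2 difference −0.09), and with the block 2 were higher and 2 lower. It was Eif2b5, a subunit of the exchange factor that recharges eIF2, with 117 ± 24.8 CPM (SD, n = 12) in collagen and 159 ± 30.6 CPM (SD, n = 6) in suspension (log2 difference −0.45, adjusted p = 0.0809, edgeR). The kinases PERK (Eif2ak3, 0.09), GCN2 (Eif2ak4, −0.16), PKR (Eif2ak2, −0.33) and HRI (Eif2ak1, −0.30) had log2 differences that did not pass in either fit.

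Among 13 tested partner transcription factors and further ATF4 targets, 2 were higher and 0 lower (median 0.20), and with the block 5 and 0. Nupr1, a stress-induced chromatin protein, had 44.6 ± 20.6 CPM (SD, n = 12) in collagen and 14.9 ± 6.93 CPM (SD, n = 6) in suspension (log2 difference 1.54, adjusted p = 0.0102, edgeR). Sqstm1, the autophagy receptor p62, had 3686 ± 1792 CPM and 1785 ± 567 CPM (log2 difference 1.06, adjusted p = 0.0479). Of 10 tested enzymes of serine, folate and other amino acid metabolism, 0 were higher and 1, Pck2, was lower (18.4 ± 8.66 against 32.5 ± 10.2 CPM, log2 difference −0.84, adjusted p = 0.0818), and the median was −0.28. With the block 1 was higher and 2 were lower. Pck2 encodes the mitochondrial phosphoenolpyruvate carboxykinase.

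Amino acid transporters went both ways, with 2 of 9 higher and 1 lower (median 0.52), and with the block 4 higher and 2 lower. Slc38a2, a carrier of small neutral amino acids, had 220 ± 172 CPM (SD, n = 12) in collagen and 54.2 ± 25.2 CPM (SD, n = 6) in suspension (log2 difference 1.87, adjusted p = 0.00287, edgeR). Slc7a11, the cystine carrier, was also higher (0.98, adjusted p = 0.0494), and Slc1a4, a carrier of alanine, serine and cysteine, was lower (−0.90, adjusted p = 0.00936). Of 12 cytosolic tRNA synthetases, 0 were higher and 3 lower (median −0.27): Wars (−0.60, adjusted p = 0.0552), Aars (−0.56, adjusted p = 0.0715) and Lars (−0.72, adjusted p = 0.0716). These charge tRNAs with tryptophan, alanine and leucine, and with the block 6 of the 12 synthetases were lower and 0 higher.

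The neighboring arms of the unfolded protein response, driven by IRE1 and ATF6, had 4 of 11 genes higher and 0 lower (median 0.39). These counts were 6 and 0 with the block. Hspa5, the chaperone BiP, had 767 ± 304 CPM (SD, n = 12) in collagen and 375 ± 67.2 CPM (SD, n = 6) in suspension (log2 difference 0.97, adjusted p = 0.00487, edgeR). Dnajb9, a co-chaperone of BiP, was higher by 1.26 (adjusted p = 0.0081), Manf, a secreted factor of the endoplasmic reticulum, by 0.50 (adjusted p = 0.0338), and Edem1, which helps to clear misfolded glycoproteins, by 0.40 (adjusted p = 0.0776). Medians over such small lists are descriptions, beside a median of 0.00 over all genes.

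**Figure D4:**
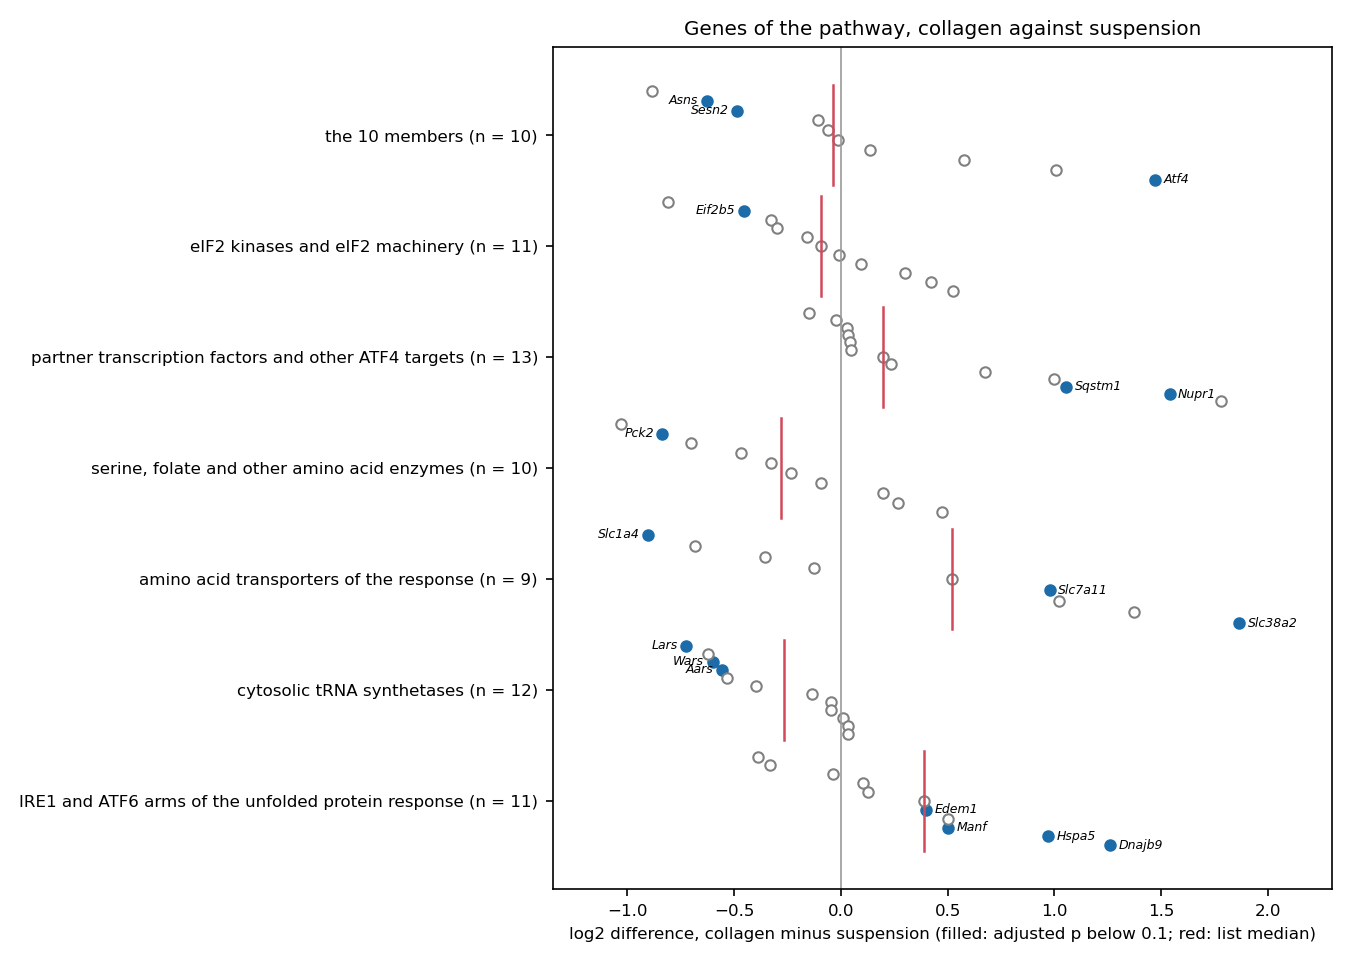
Log2 differences between collagen and suspension are plotted for the 10 members and for 66 other tested genes of the pathway in 6 lists. Filled points passed an FDR of 0.1 over all 13844 genes in the fit without the block, and the red line is the median of a list. Each list but that of the IRE1 and ATF6 arms and that of partner factors has genes that passed as lower, and each but the eIF2, enzyme and synthetase lists has genes that passed as higher.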

How the data were processed

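RNA was sequenced as 50-base single-end reads in 18 libraries, 3 per group. The authors deposited raw counts per Ensembl gene. The submitters' processing notes name STAR 2.7.0f and GRCm38, and the paper's methods give stranded libraries, RSEM for expression values in TPM, which were not used here, and DESeq2. Whether RSEM also made the counts, the strand setting of the counting and its treatment of reads that match more than 1 place are not given in the sources used here. The sample labels gave the groups and the replicate numbers.

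Counts were analysed in R 4.3.3 with edgeR 4.0.16 (filterByExpr, TMM, quasi-likelihood F-test, Benjamini-Hochberg adjustment over 13844 genes, FDR 0.1) in 1 fit over the 18 libraries. CPM used TMM-scaled library sizes, and log2 CPM a prior count of 2. Standard errors (SE) come from the F statistic and the log2 difference. Collagen against suspension compares the mean of 4 with the mean of 2 groups. The densities entered the trend in mg/ml. The script was tested on simulated counts. Gene positions and lengths came from GENCODE M21.

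The alternatives were the replicate number as a block, DESeq2 1.42.0 with and without the block, its size factors, no filter, an FDR of 0.05, GC and length offsets (loess, span 0.5) with and without the block, and omission of each replicate and library. The study's methods do not say whether the replicate entered the model. Same-numbered libraries share a date and a leading code in the library names, and what remained after the group means were taken out correlated between them (mean r over genes 0.43 over 45 pairs, from −0.15 to 0.85). For other numbers the mean r was −0.21. Because the mean of each group of 3 libraries was subtracted, that value is tied to the first and is no separate comparison.

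The members and gene lists were chosen with earlier results of these data known. Named were all members, up to 3 genes of each pathway list past the threshold with the lowest adjusted p, and the 2 genes most like each member. Edem1, Gdf15, the eIF2 kinases and the genes that overlap members are named outside that rule, chosen after their values were seen.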

Additional observations from a re-analysis of the deposited data

Results flagged for a closer look

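Asns in suspension had 1 library far from the other 5. Replicate 3 of the group titled without CCL19 had 108 CPM, and on the log2 scale the gap to the next library made up 0.702 of the range of the 6 libraries, above the critical value of Dixon's test. This was the only 1 of 10 genes so marked in suspension, and chance marks about 1 in 20 groups. Without that library the log2 difference of Asns between collagen and suspension was −0.26 (adjusted p = 0.366 from edgeR). Psat1 was also highest in the same library, at 54.0 CPM, but there the next library had 53.9 CPM.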

How the results depend on the processing

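Of the 10 genes, 3 passed for collagen against suspension without the block. The number was 6 with the replicate block, 6 with DESeq2 and the block, and 6 with GC and length offsets and the block. It was also 6 with the block and without replicate 2 at 4.4 mg/ml. DESeq2 called 4, its size factors 2, and an FDR of 0.05 called 1. Of all genes, 2790 passed without the block, 4823 with it, 5381 with DESeq2 and the block, and 5213 with the offsets and the block. DESeq2 called 3414 genes, its size factors 2735, and an FDR of 0.05 called 1793. For the trend, 2 members passed with the block, 3 with DESeq2 and the block, and 3 with the offsets and the block, instead of 0. With no filter on low counts 1 passed. Of all genes, 201, 811, 715 and 139 passed in that order, instead of 1. For 4.4 against 1.7 mg/ml, 2 members passed with the block, 3 with DESeq2 and the block, and 3 with the offsets and the block. DESeq2 and no filter called 1 each, instead of 0. The numbers of all genes were 239, 918, 984, 147 and 151 in that order, instead of 1. At 1.7 mg/ml, 1 member passed with the block in edgeR, in DESeq2, with the offsets and without replicate 2 at 4.4 mg/ml, instead of 0. All genes called with the block were 403 in edgeR, 1095 in DESeq2 and 725 with the offsets, instead of 5. At 2.6 mg/ml, 2 members passed with the block, 2 with DESeq2 and the block, and 3 with the offsets and the block, instead of 1. The block without replicate 2 at 4.4 mg/ml called 4, and an FDR of 0.05 called 0. Of all genes, 2990, 3665 and 3477 passed with the block in edgeR, in DESeq2 and with the offsets, instead of 1090. The FDR of 0.05 left 444. At 3.5 mg/ml, 3 members passed with the block in edgeR, in DESeq2 and without replicate 2 at 4.4 mg/ml, instead of 0. With DESeq2, no filter, the offsets, and the offsets with the block, 1 passed each time. Of all genes, 2551 passed with the block in edgeR and 3200 in DESeq2, instead of 679. The settings with 1 member called 1343, 706, 670 and 2685 genes in that order. At 4.4 mg/ml, 4 members passed with the block in edgeR, in DESeq2 and without replicate 2 at 4.4 mg/ml, instead of 3. The offsets with the block called 5, and no filter and an FDR of 0.05 called 2 each. Of all genes, 4420 passed with the block in edgeR, 5023 in DESeq2 and 4875 with the offsets, instead of 2054. No filter called 2384 genes and an FDR of 0.05 called 1229. For any difference, 4 members passed with the block, 5 with DESeq2 and the block, and 4 with the offsets and the block, instead of 1. The block without replicate 2 at 4.4 mg/ml called 5. DESeq2, no filter and the offsets called 2 each, and an FDR of 0.05 called 0. Of all genes, 3363, 5298 and 3811 passed with the block in edgeR, in DESeq2 and with the offsets, instead of 679. DESeq2 called 2015, no filter 1993, the offsets 714 and an FDR of 0.05 called 338. Omission of a replicate or a library gave 0 to 4 members for collagen against suspension and 0 to 4 at 4.4 mg/ml. It gave 0 to 1 at 2.6 and at 3.5 mg/ml, 0 to 2 for any difference, and 0 to 0 for the other comparisons. The numbers of all genes called in these omissions are not given here, nor those with the block without replicate 2 at 4.4 mg/ml. A call lost in an omission, here and above, is thus not set against the share of all genes that lost theirs. The replicate block lost no call that a member had without it, and the cause of these differences was not tested.

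Changes of sign concerned values that did not pass without the block. Between collagen and suspension, Atf5 turned to 0.040 with the offsets and 0.039 with the offsets and the block, and Trib3 to 0.22 with the replicate block, 0.055 with DESeq2, 0.27 with DESeq2 and the block, 0.052 with the size factors, 0.00180 with the offsets and 0.25 with the offsets and the block. Psat1 turned to 0.00815 with the block and without replicate 2 at 4.4 mg/ml. That setting also turned the trend of Ddit3 (−0.033), Cebpb (−0.41), Sesn2 (−0.013) and Psat1 (0.035), and at 4.4 mg/ml Cebpb (−0.37), Trib3 (−0.65) and Psat1 (0.11). The trend of Ddit3 was −0.00688 with no filter, that of Cebpb −0.091 with the offsets and the block, and that of Trib3 0.058 with the block, 0.086 with DESeq2 and the block, and 0.00216 with the offsets and the block. Over omissions, values ran from −0.13 to 0.023 for Atf5, −0.23 to 0.99 for Cebpb, −0.36 to 0.86 for Trib3 and −0.28 to 0.23 for Psat1 between collagen and suspension. They ran from −0.13 to 0.31 for Ddit3, −0.22 to 0.43 for Cebpb, −0.44 to 0.37 for Trib3, −0.030 to 0.18 for Sesn2 and −0.17 to 0.066 for Psat1 in the trend, and from −0.37 to 2.06 for Cebpb, −0.85 to 1.84 for Trib3 and −0.54 to 0.15 for Psat1 at 4.4 mg/ml.

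The numbers of all genes called depended on the setting in the same way (201 with the block and 122 with DESeq2 for the trend, against 1). At 4 to 60 counts per library, depth limits Chac1.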

Other observations

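For each member the most similar genes over the 18 libraries, after the mean of each replicate was subtracted, are given as a description, since these libraries share batches and group differences. Atf4 was nearest to Hmox1 (r = 0.97), which encodes heme oxygenase, and to Slco4a1 (0.97). Ppp1r15a was nearest to Gadd45b (0.97) and Tgif1 (0.97), and Ddit3 to Atp6v0b (0.95), a subunit of the vacuolar proton pump, and Cdk2ap2 (0.95). Sesn2 was nearest to Fntb (0.96) and Man2b2 (0.96). Asns was nearest to Dhcr7 (0.92), an enzyme of cholesterol synthesis, and to Aars (0.89), the alanyl-tRNA synthetase, and Psat1 to Cotl1 (0.93) and Got2 (0.92), an aspartate aminotransferase. Trib3 was nearest to Apba3 (0.94) and Creld1 (0.91), Cebpb to Pym1 (0.90) and Sdc4 (0.88), Atf5 to Dtnbp1 (0.93) and St6galnac6 (0.88), and Chac1 to Ppcs (0.89) and Rcc2 (0.89). Each was picked as the highest of all tested genes, so a high r is no finding by itself.

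At 4.4 mg/ml against suspension, the genes of the other pathway lists that passed as higher in edgeR were Nupr1 (log2 difference 2.02, adjusted p = 0.0108), Gdf15 (3.11, adjusted p = 0.0569), Sqstm1 (1.54, adjusted p = 0.037), Slc38a2 (2.95, adjusted p = 0.00138), Hspa5 (1.62, adjusted p = 0.00187), Manf (0.75, adjusted p = 0.0268) and Dnajb9 (1.77, adjusted p = 0.00696). Slc1a4 (−1.25, adjusted p = 0.0216) and Aars (−0.85, adjusted p = 0.0807) passed as lower. The lists held 66 tested genes, and 14.8% of all genes passed in this comparison. Gdf15, a secreted stress cytokine, did not pass over all densities (1.78, adjusted p = 0.145).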
